A study of Homo sapiens with 6 samples.

Results

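The genes described here are 10 that build or neighbour the hemidesmosome, out of 38167 genes in the count table. They were chosen by name and role: PLEC, DST, COL17A1, ITGA6, ITGB4, ITGA3, ITGB1, CD151, EPPK1 and EVPL. All 10 had a row in the table, and all 10 passed the filter on low counts, with between 23 and 1580 counts in each library. RNA came from small extracellular vesicles in the medium of Cal27 spheroids, Cal27 being an established squamous carcinoma line of the human tongue. The stiff group was 3 libraries from spheroids held in Matrigel at 12 mg/mL, and the soft group 3 libraries from spheroids at 3 mg/mL, all at day 14. Matrigel is a gel of basement membrane proteins, rich in laminin and collagen IV, so the amount of matrix ligand rose together with stiffness in this design, and these cannot be told apart. A single cell line was used, and no treatment was shared by the groups beyond the gel culture.

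Hemidesmosomes are rivets that hold basal squamous cells to the basement membrane. On the outer face, the integrin made of ITGA6 and ITGB4 and the membrane collagen encoded by COL17A1 hold on to laminin. On the inner face, plectin and the epithelial product of DST, both plakins, tie the integrin to keratin filaments. ITGA3 and ITGB1 form a second laminin receptor, which links to actin at focal adhesions, and the tetraspanin CD151 binds both laminin receptors in the membrane. Epiplakin and envoplakin, encoded by EPPK1 and EVPL, are related plakins that bind keratins but are not core parts of the hemidesmosome. The libraries were made from RNA of vesicles in the medium, so the values below are not levels in the spheroids. More vesicles with a transcript cannot be told apart from more copies per vesicle. Whether every read came from a transcript was not tested.

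Libraries held 2697502 to 2977837 counts in the stiff group and 2445498 to 2545385 in the soft group. Ribosomal RNA and mitochondrially encoded genes together took 20.2% to 23.0% of counts in stiff libraries and 4.55% to 10.4% in soft ones, so levels are given as CPM, counts scaled to a common library size with TMM factors, which set the middle of the gene distribution equal between libraries. The 12 markers of squamous epithelium had a median of 7.62 CPM per kb of exon, where the 4 muscle markers had 9.38, the 6 immune markers 6.05, the 5 endothelial markers 5.42 and the 7 fibroblast markers 3.85. No marker in any of these lists was at 0 in all 6 libraries. Summed over the list, squamous markers spanned 348 to 390 CPM in stiff and 331 to 357 CPM in soft libraries, and muscle markers 128 to 135 CPM in stiff and 112 to 130 CPM in soft. Immune markers spanned 103 to 114 CPM in stiff and 101 to 122 CPM in soft libraries, endothelial markers 194 to 205 in stiff and 189 to 222 in soft, and fibroblast markers 271 to 290 in stiff and 257 to 281 in soft. The squamous label was therefore not set apart by its markers in these libraries.

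Of the 10 genes, PLEC and EPPK1 were higher in vesicles from stiff Matrigel, by 1.23-fold and 1.24-fold, and the other 8 did not pass the test. By edgeR's quasi-likelihood test with Benjamini-Hochberg adjustment over 31074 genes, 2 of 10 were called higher and 0 of 10 lower, where 0.286% of all genes tested were called higher and 0.164% lower. These shares are over genes of all levels, while PLEC and EPPK1 were at percentiles 99.9 and 99.8 of mean CPM among them. Of the tested protein-coding genes at 65% to 70% GC, the step that holds both, 4.37% were called higher. At an unadjusted p under 0.05 the members' counts were the same 2 and 0, beside 5.01% higher and 4.5% lower of all genes tested. PLEC and EPPK1 were also the only members whose stiff and soft CPM did not overlap, with every stiff library above every soft one. That pattern was found for 7.38% of all genes, and its opposite, which no member showed, for 6.76%. DESeq2 gave an adjusted p for 5 of the 10 members, the others falling under its filter on mean count. It called the same 2 genes higher, where 2.18% of the 2157 genes with an adjusted p were, and limma-voom called these 2 as well, where it called 0.293% of all genes in either direction. The calls did not hold in every setting. Of 18 alternatives, PLEC was called in 11 and EPPK1 in 10. Neither was called after correction for GC content (edgeR adjusted p = 0.399 and 0.643) or under library totals alone (0.761 and 0.735). The median log2 fold change of the 10 genes was 0.03, with 5 above 0 and 5 below, beside −0.0048 for all genes tested. The earlier results known when the genes were chosen included the rise of PLEC, which is therefore not independent support.

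**Figure D1:**
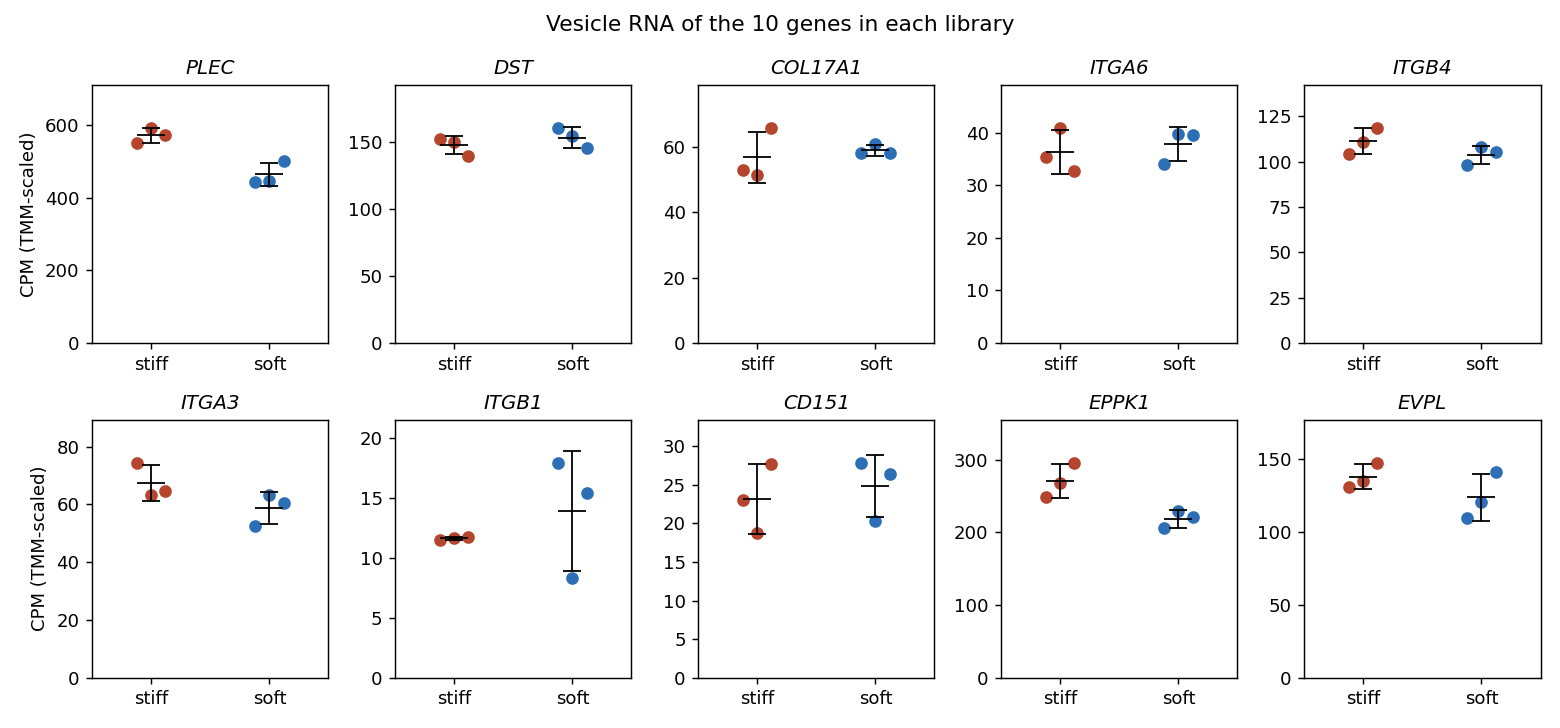
TMM-scaled CPM of each gene (vertical axes start at 0) in the 3 stiff and 3 soft libraries. Points are libraries and bars are the mean ± SD. PLEC and EPPK1 are the panels in which the groups do not overlap, with PLEC at 551 to 593 CPM in stiff and 445 to 503 CPM in soft libraries.

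PLEC encodes plectin, the large linker between the integrin tail and keratin. It had 1340, 1580 and 1508 counts in stiff and 1212, 1234 and 1333 counts in soft libraries, in replicate order, and was the most abundant of the 10. Scaled, it stood at 551, 593 and 573 CPM in stiff and 445, 447 and 503 CPM in soft libraries. The lowest stiff library was above the highest soft library, which was soft replicate 3. That library stood apart from the other soft ones, at 3.86 and 2.86 chi-square per degree of freedom over genes, where the 4 other pairs within a group had 1.53 to 1.695. Its share of ribosomal RNA and mitochondrial counts was 10.4%, against 4.55% and 6.02% in the other soft libraries. Without soft replicate 3 the log2 fold change of PLEC was 0.37 (edgeR adjusted p = 0.000111). PLEC rose by 0.30 ± 0.068 log2 units (SE, 3 libraries per group; edgeR adjusted p = 0.00896), which is 1.23-fold. The gene lies on chromosome 8 (143915147 to 143976734, GRCh38) with 16.99 kb of exon, and in the table it overlaps 1 microRNA gene inside it, MIR661, which had 3 to 7 counts per library. The call was absent after correction for GC content (0.13 ± 0.053, adjusted p = 0.399), under scaling by library totals alone (0.03, adjusted p = 0.761) and without robust dispersion (0.145). It was also absent without soft replicate 1 (adjusted p = 0.0575), soft replicate 2 (0.103) or stiff replicate 2 (0.128). Across 18 alternatives its adjusted p ran from 1.08e-05 to 0.761, and the fold change was above 0 in all of them.

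EPPK1 encodes epiplakin, a keratin-binding protein built of plakin repeats, several of which are near-identical in sequence. It had 606, 712 and 778 counts in stiff and 560, 632 and 587 counts in soft libraries. In CPM these were 249, 267 and 296 in stiff and 205, 229 and 221 in soft libraries. The gap between the groups was narrow, with 249 in stiff replicate 1 against 229 in soft replicate 2. EPPK1 rose by 0.31 ± 0.073 log2 units (SE, 3 libraries per group; edgeR adjusted p = 0.0140), or 1.24-fold. Its count is uncertain to the extent that reads fitting more than 1 repeat were dropped, because the handling of such reads was not given in the sources used here. EPPK1 lost the call after correction for GC content (0.11 ± 0.065, adjusted p = 0.643), under library totals alone (0.04, adjusted p = 0.735), without robust dispersion (0.0834) and with DESeq2 without its filter on mean count (0.114). The call was lost too without soft replicate 1 (adjusted p = 0.123), stiff replicate 2 (0.0708) or stiff replicate 3 (0.252). Its adjusted p ran from 0.00339 to 0.735 across 18 alternatives, all with a fold change above 0. The gene lies 36.7 kb from PLEC on chromosome 8 (143857324 to 143878464), and the ratio of EPPK1 to PLEC counts was 0.473 ± 0.0372 in stiff and 0.472 ± 0.0368 in soft libraries (SD, n = 3 each; exact two-sided permutation p = 0.9).

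EVPL encodes envoplakin, which pairs with periplakin under the plasma membrane and becomes part of the cornified envelope. It stood at 131, 134 and 147 CPM in stiff and 109, 120 and 141 CPM in soft libraries, and the groups overlapped because soft replicate 3 was above 2 of the stiff libraries. Its log2 fold change was 0.16 ± 0.086 (SE, n = 3 per group; edgeR adjusted p = 0.581), with an approximate 95% interval of −0.01 to 0.32. EVPL (chromosome 17, 76004502 to 76027452) overlaps CDK3 and the readthrough gene TEN1-CDK3 on the opposite strand, at 29 to 43 and 83 to 105 counts per library.

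DST makes several giant plakins, of which the epithelial one binds COL17A1 and ITGB4 in the hemidesmosome while others serve nerve and muscle, and gene-level counts add all of them. It had 370, 400 and 367 counts in stiff and 437, 425 and 385 counts in soft libraries. In CPM it stood at 152, 150 and 140 in stiff and 160, 154 and 145 in soft libraries, and the groups overlapped. The log2 fold change was −0.06 ± 0.081 (SE, n = 3 per group; edgeR adjusted p = 0.891, interval −0.22 to 0.10). DST is the longest of the 10 genes (chromosome 6, 56457987 to 56954628, 42.34 kb of exon), and DST-AS1 on the opposite strand had 8 to 24 counts per library. Within a library the ratio of DST to PLEC counts does not depend on scaling. That ratio was 0.276, 0.253 and 0.243 in stiff and 0.361, 0.344 and 0.289 in soft libraries, and the groups did not overlap. The ratio restates in part the higher PLEC already known when the genes were chosen, and it sets a gene of 41.3% GC against one of 67.0%. The stiff mean was 0.777 of the soft mean (exact two-sided permutation p = 0.1, and 0.3 after Benjamini-Hochberg adjustment over the 6 ratios computed), and with groups of 3 no smaller p than 0.1 can be reached.

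The integrin of the hemidesmosome showed no call in either chain. ITGA6, its alpha chain, stood at 35.4, 40.9 and 32.7 CPM in stiff and 34.1, 39.8 and 39.6 CPM in soft libraries. ITGB4, its beta chain with the long tail that docks plectin, stood at 104, 111 and 119 CPM in stiff and 97.9, 108 and 105 CPM in soft libraries. The groups overlapped for both genes. Their log2 fold changes were −0.06 ± 0.15 for ITGA6 (edgeR adjusted p = 0.949, interval −0.34 to 0.23) and 0.10 ± 0.090 for ITGB4 (adjusted p = 0.770, interval −0.07 to 0.28; SE, n = 3 per group). The ratio of ITGA6 to ITGB4 counts was 0.327 ± 0.0473 in stiff and 0.365 ± 0.0146 in soft libraries (SD, n = 3 each; exact two-sided permutation p = 0.2). ITGA6 (chromosome 2, 172427354 to 172506282) overlaps ITGA6-AS1, at 4 to 10 counts per library, and ITGB4 (chromosome 17, 75721328 to 75757818) overlaps GALK1, at 63 to 86 counts. Both partners lie on the opposite strand. The library kit keeps strand, but the strand setting of the counting was not given in the sources used here, so reads of overlapping genes on opposite strands may not have been told apart.

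The second laminin receptor had no call either. ITGA3, its alpha chain (chromosome 17, 50055968 to 50090481), stood at 74.4, 63.1 and 64.6 CPM in stiff and 52.5, 63.4 and 60.3 CPM in soft libraries, and stiff replicate 2 alone lay within the soft range. Its log2 fold change was 0.20 ± 0.11 (SE, n = 3 per group; edgeR adjusted p = 0.613, interval −0.03 to 0.42). ITGB1, the beta chain shared by many integrins, was the scarcest of the 10 genes. It had 28, 31 and 31 counts in stiff and 49, 23 and 41 counts in soft libraries, or 11.5, 11.6 and 11.8 CPM in stiff and 17.97, 8.33 and 15.5 CPM in soft. The stiff libraries were nearly alike while the soft ones lay on both sides of them, and soft replicate 2 was the lowest of all 6. The log2 fold change was −0.25 ± 0.25 (SE, n = 3 per group; edgeR adjusted p = 0.813), with an interval of −0.75 to 0.24. ITGB1 (chromosome 10, 32900319 to 33005792) overlaps ITGB1-DT, a non-coding gene on the opposite strand, which had 19, 27 and 23 counts in stiff and 41, 34 and 42 counts in soft libraries. ITGB1-DT, singled out after its values were seen, did not pass the test (log2 fold change −0.69 ± 0.26, edgeR adjusted p = 0.296). The ratio of ITGA3 to ITGB1 counts was 5.79 ± 0.586 in stiff and 4.81 ± 2.47 in soft libraries (SD, n = 3 each; exact two-sided permutation p = 0.5).

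COL17A1 and CD151, the other membrane components, overlapped between groups as well. COL17A1, the collagen that spans the membrane (chromosome 10, 104031286 to 104085957), stood at 53.0, 51.4 and 65.8 CPM in stiff and 58.0, 60.9 and 58.1 CPM in soft libraries. Its log2 fold change was −0.05 ± 0.12 (SE, n = 3 per group; edgeR adjusted p = 0.935, interval −0.29 to 0.18), and 2 stiff libraries lay below and 1 above all soft ones. CD151 (chromosome 11, 832843 to 839831) had 56, 50 and 73 counts in stiff and 76, 56 and 70 counts in soft libraries. In CPM these were 23.0, 18.8 and 27.8 in stiff and 27.9, 20.3 and 26.4 in soft (log2 fold change −0.10 ± 0.18, adjusted p = 0.921, interval −0.46 to 0.26). CD151 overlaps POLR2L on the opposite strand, at 34 to 43 counts per library. The ratio of COL17A1 to ITGB4 counts, the membrane partners, was 0.508 ± 0.0458 in stiff and 0.569 ± 0.0204 in soft libraries (SD, n = 3 each; exact two-sided permutation p = 0.2). The ratio of EVPL to PLEC counts was 0.240 ± 0.0152 in stiff and 0.265 ± 0.0177 in soft libraries (SD, n = 3 each; exact two-sided permutation p = 0.2). Of the 6 ratios only DST to PLEC had groups that did not overlap. Its exact two-sided permutation p was 0.1, and 0.3 after Benjamini-Hochberg adjustment over the 6, so it did not pass either.

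Together the 10 genes took 0.125% to 0.132% of counts in stiff and 0.135% to 0.137% in soft libraries, a ratio of 0.949 between the group means. With ribosomal RNA and mitochondrial genes taken out of the total, the shares were 0.165% ± 0.00476 in stiff and 0.146% ± 0.00596 in soft libraries (SD, n = 3 each), a ratio of 1.13, so the direction of this sum turns with the total it is set against. PLEC alone supplied 39.9% ± 1.17 of the members' counts in stiff and 36.9% ± 1.24 in soft libraries, and EPPK1 18.9% ± 1.06 in stiff and 17.4% ± 0.802 in soft.

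Set per length, the core of the hemidesmosome did not form a group of equal levels. Per kb of exon, the mean over the 6 libraries was 30.5 CPM for PLEC, 17.4 for EVPL, 15.9 for ITGB4 and 15.3 for EPPK1. It was 8.19 CPM per kb for COL17A1, 6.43 for ITGA3, 6.10 for CD151, 5.68 for ITGA6, 3.55 for DST and 2.13 for ITGB1. The ranges over the libraries kept PLEC apart from EVPL, EPPK1 from COL17A1, ITGA6 from DST and DST from ITGB1, while EVPL, ITGB4 and EPPK1 overlapped in turn, as did COL17A1, ITGA3, CD151 and ITGA6. The beta chain ITGB4 was thus well above its partner ITGA6 per kb, and the plakins ran from the top of this order to its second-lowest place. The 2 chains differ in GC content, at 63.7% for ITGB4 and 42.9% for ITGA6. Among tested protein-coding genes in the same 5 percentage points of GC content, ITGB4 was at percentile 75.1 of level and ITGA6 at 70.5. Against genes of like composition the partners thus stood at similar places. Per kb of the longest transcript the first 4 and the last kept their places, DST moved to the eighth place, and CD151 to the fifth at 12.9.

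Olfactory receptor genes, which squamous cells do not use, had a median of 4.28 CPM per kb over 381 genes (middle 50% from 3.33 to 5.84) and none was at 0 in all 6 libraries. The highest of these 381 genes had 30.8 CPM per kb, above all 10 members, and their 95th percentile was 10.4. ITGB1 was above 26 of these genes and DST above 115. ITGA6, above 279, lay inside their middle 50%. CD151 was above 291, ITGA3 above 304 and COL17A1 above 342. Per kb of exon, 6 of the 10 members were thus below the 95th percentile of genes taken as silent. EPPK1, ITGB4, EVPL and PLEC were above 372, 373, 375 and 380. These 4 have GC contents of 63.7% to 68.1%, against a median of 43.1% for the olfactory receptor genes. Among tested protein-coding genes in the same 5 percentage points of GC content, they were at percentiles 35.1, 75.1, 49.5 and 93.5, in that order. The part of GC content in their levels was not tested. Per kb of the longest transcript DST was at 6.70, CD151 at 12.9 and ITGA3 at 11.5, against 3.55, 6.10 and 6.43 per kb of exon. The percentiles of olfactory receptor genes were computed per kb of exon only. Beside all 19273 protein-coding genes, with a median of 6.09 CPM per kb, ITGB1 was at the 5.0th percentile and DST at 18.8, while PLEC was at 99.1 and EVPL at 93.9.

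**Figure D2:**
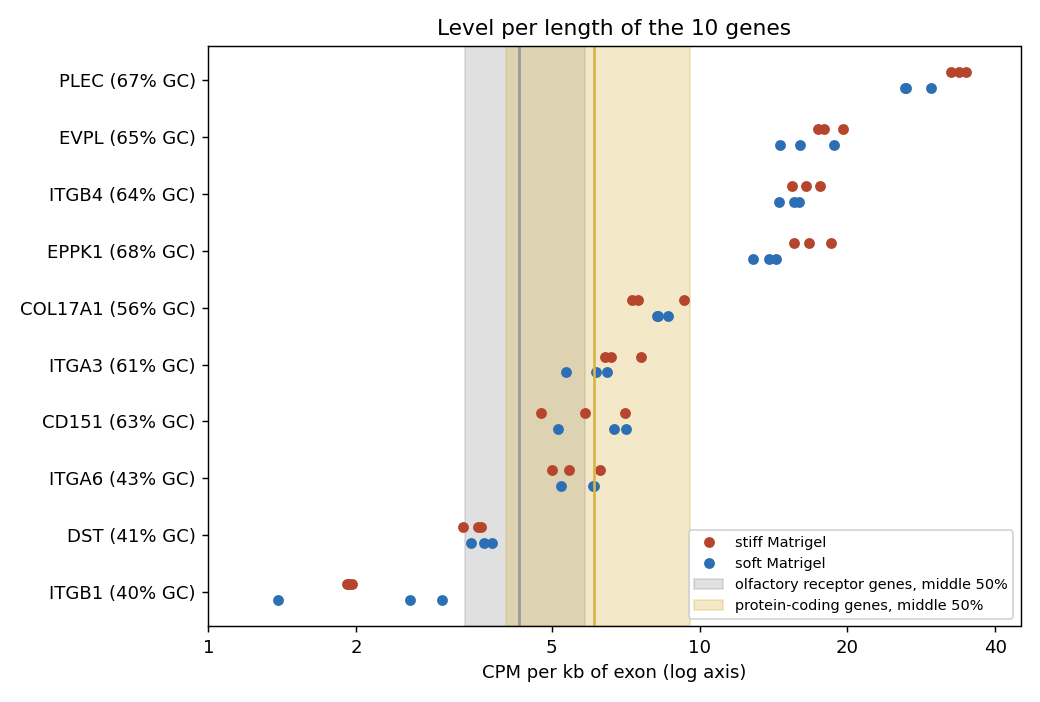
CPM per kb of exon (horizontal log axis) of the 10 genes in each stiff and soft library, ordered by their mean, with the GC content of the longest transcript after each name. Grey and yellow bands are the middle 50% of olfactory receptor genes (3.33 to 5.84) and of protein-coding genes, and vertical lines are their medians (4.28 and 6.09). ITGB1 lies below the grey band, DST at its lower edge, and PLEC, EVPL, ITGB4 and EPPK1 lie above both.

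Levels were related to base composition, with exceptions. Over tested protein-coding genes in steps of 5 percentage points of GC content, the median was 3.79 CPM per kb at 35% to 40% and 17.5 at 65% to 70%. PLEC and EPPK1 had the highest GC content of the longest transcript, at 67.0% and 68.1%, followed by EVPL at 65.0%, ITGB4 at 63.7%, CD151 at 62.6%, ITGA3 at 61.3% and COL17A1 at 55.9%. ITGA6, DST and ITGB1 had 42.9%, 41.3% and 39.98%. Across the 10 genes, which share libraries and depth and are not replicates, log2 CPM per kb and GC content had Pearson's r of 0.85 and Spearman's rho of 0.88. Per kb of exon, CD151 and ITGA3 went against this and were below COL17A1. They were at percentiles 4.8 and 6.0 of the levels in their step, whose median was 12.1 CPM per kb. Per kb of the longest transcript they were at 12.9 and 11.5, above COL17A1 at 10.2. EPPK1, with the highest GC content, was below PLEC, EVPL and ITGB4 in mean level, at percentile 35.1 of its step, while PLEC was at 93.5. The stretches below show the difference in base composition in the coding sequence for the 4 members with an entry in the RefSeq promoter table used here. Each is 100 bases of 1 coding exon whose composition is nearest to that of the whole coding sequence, from GENCODE 29 transcripts (GRCh38), 5′ to 3′, with G and C in capitals.
COL17A1, coding exon at chr10:104064489-104064588, minus strand: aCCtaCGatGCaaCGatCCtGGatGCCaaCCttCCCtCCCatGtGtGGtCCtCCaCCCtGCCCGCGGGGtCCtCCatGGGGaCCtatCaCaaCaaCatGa
ITGA6, coding exon at chr2:172469127-172469226, plus strand: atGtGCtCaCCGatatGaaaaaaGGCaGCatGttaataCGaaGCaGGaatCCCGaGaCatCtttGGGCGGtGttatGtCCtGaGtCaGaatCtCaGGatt
DST, coding exon at chr6:56670645-56670744, minus strand: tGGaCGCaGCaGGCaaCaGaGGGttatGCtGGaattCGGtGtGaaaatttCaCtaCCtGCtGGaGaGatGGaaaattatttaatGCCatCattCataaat
ITGB1, coding exon at chr10:32929945-32930044, minus strand: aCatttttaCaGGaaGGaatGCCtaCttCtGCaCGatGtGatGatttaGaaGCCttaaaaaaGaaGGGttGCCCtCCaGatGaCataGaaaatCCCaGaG
The coding sequences as wholes had 59.5% GC in COL17A1, 44.7% in ITGA6, 41.2% in DST and 41.2% in ITGB1. The capitals lie close together in COL17A1 and are scattered among runs of a and t in ITGB1. Because each stretch was picked by its composition, it illustrates these percentages and adds nothing to them. Per kb of exon COL17A1 had 8.19 CPM, ITGA6 5.68, DST 3.55 and ITGB1 2.13, so DST and ITGB1 differed in level at the same coding GC content.

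Fold changes were related to base composition too. Across the 10 genes, the log2 fold change and GC content had Pearson's r of 0.80 and Spearman's rho of 0.81, given as a description of genes that share the same libraries. Over the 18728 protein-coding genes tested with a GC value, r was 0.20 and rho 0.22. In steps of 5 percentage points, the median log2 fold change of those genes was −0.02 at 40% to 45% GC, 0.04 at 55% to 60%, 0.08 at 60% to 65% and 0.19 at 65% to 70%. Of the 663 genes in the step from 65% to 70%, which holds PLEC, EPPK1 and EVPL, 86.4% were above 0. In that step 29 genes, PLEC and EPPK1 among them, were called higher, or 4.37%, against 0.286% of all genes tested. PLEC was 0.11 and EPPK1 0.12 above the median of that step, at percentiles of 78.7 and 80.4 of its fold changes, and EVPL was 0.03 below it. ITGA3 and ITGB4 were 0.11 and 0.02 above the median of their step, and CD151 0.18 below it. ITGB1 was 0.21, DST 0.04, ITGA6 0.04 and COL17A1 0.09 below the medians of theirs.

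**Figure D3:**
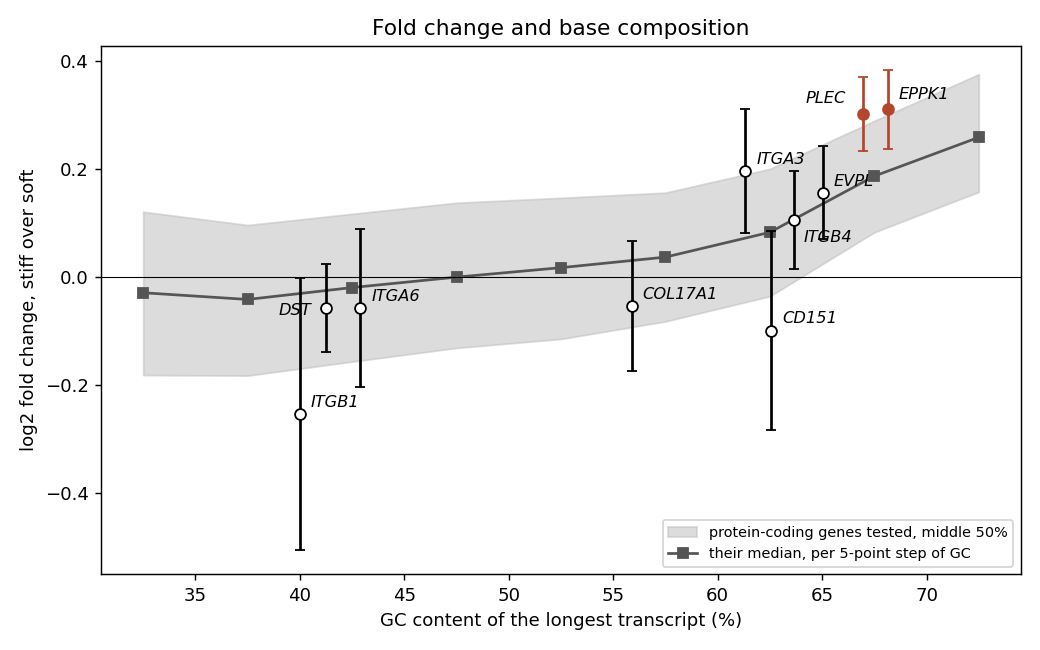
Log2 fold change, stiff over soft (vertical axis), against the GC content of the longest transcript in percent (horizontal axis). Circles with bars are the 10 genes ± SE, filled where edgeR called them. Squares are medians and the grey band the middle 50% of tested protein-coding genes in steps of 5 points. PLEC and EPPK1 lie above the median of 0.19 of their step, by 0.11 and 0.12.

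With offsets for GC content in the edgeR fit, 0 of the 10 genes were called, where 0.126% of 23079 genes were called higher, and at an unadjusted p under 0.05 there was 1 of 10, PLEC, beside 9.02% of those genes. The GC-corrected log2 fold changes were 0.13 for PLEC, 0.13 for ITGA3, 0.11 for EPPK1, 0.02 for EVPL, −0.01 for ITGB4, −0.03 for DST, −0.04 for ITGA6, −0.07 for COL17A1, −0.19 for CD151 and −0.22 for ITGB1. Beyond this fit, the part of GC content in the rise of PLEC and EPPK1 was not tested.

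**Figure D4:**
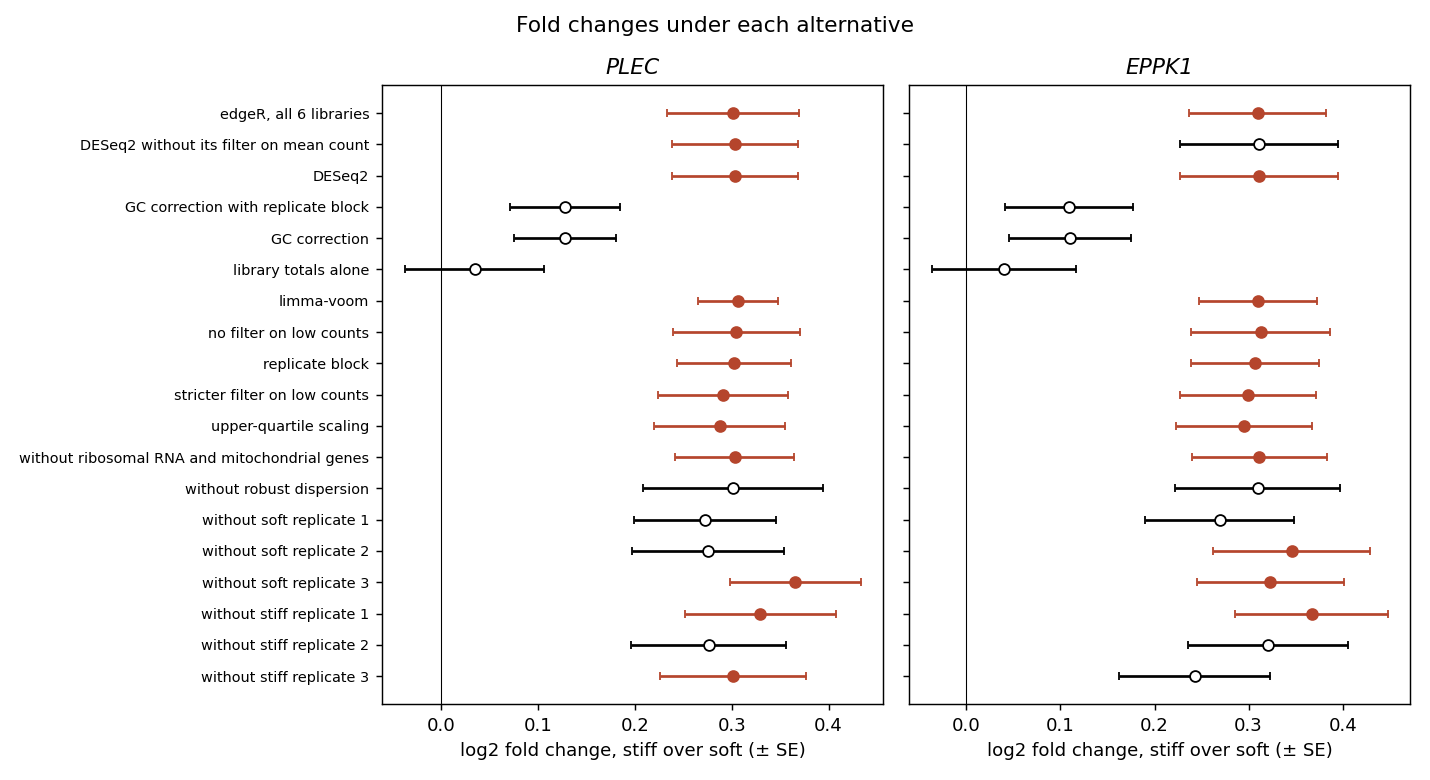
Log2 fold change ± SE (horizontal axes) of PLEC and EPPK1 with edgeR on all 6 libraries (top) and under each of the 18 alternatives (down the page). Filled circles have an adjusted p under 0.05. Every value is above 0, from 0.03 to 0.37 for PLEC and from 0.04 to 0.37 for EPPK1, with the smallest under library totals alone.

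Genes that work beside the hemidesmosome gave 1 call. Of 9 genes, including those for its laminin ligand, anchoring fibrils, keratins and turnover, 1 was called higher and 0 lower. Of all genes tested, 0.286% were called higher and 0.164% lower. The 9 genes had a median log2 fold change of −0.08, and 2 of 9 were above 0. At an unadjusted p under 0.05 by edgeR there were 2 higher and 1 lower, beside 5.01% higher and 4.5% lower of all genes tested. Limma-voom and edgeR with GC offsets called 0 of these 9, as did DESeq2, which gave an adjusted p for 1 of them with its filter on mean count and called 0 without it. With GC offsets, 3 of the 9 had an unadjusted p under 0.05, beside 9.02% of the genes in that fit. The call was KRT14, the basal keratin to which plectin ties the integrin, at 33.4 ± 6.17 CPM in stiff and 20.6 ± 3.80 CPM in soft libraries (SD, n = 3 each; log2 fold change 0.69, adjusted p = 0.0281). KRT5, its filament partner, was at 35.7 ± 1.88 CPM in stiff and 28.6 ± 2.94 CPM in soft libraries without passing (adjusted p = 0.504). COL7A1, the collagen of anchoring fibrils and the most abundant of the list, was at 84.2 ± 13.8 CPM in stiff and 91.2 ± 11.4 CPM in soft libraries. LAMA3 and LAMB3, which encode laminin chains of the ligand, had log2 fold changes of −0.02 and −0.11.

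The other plakins DSP, PPL and MACF1 had 0 of 3 called by edgeR, DESeq2 and limma-voom, with 1 of 3 at an unadjusted edgeR p under 0.05, beside 9.51% of all genes tested. That gene was DSP, the desmosomal plakin, at 88.3 ± 3.04 CPM in stiff and 68.6 ± 2.71 CPM in soft libraries (SD, n = 3 each; log2 fold change 0.36 ± 0.10, edgeR adjusted p = 0.0835), singled out after its values were seen. The GC content is 47.9% for DSP, 46.0% for MACF1 and 59.5% for PPL, all below PLEC and EPPK1. With GC offsets in the edgeR fit, 0 of these 3 genes were called and 1 had an unadjusted p under 0.05, beside 9.02% of the genes in that fit. Beyond this fit, the part of GC content in the values of these 3 genes was not tested. MACF1, the most abundant of these 3, stood at 129 CPM in both groups. PPL, the partner of EVPL, was at 125 ± 9.29 CPM in stiff and 120 ± 12.0 CPM in soft libraries. Of 12 genes that link ITGB1 integrins to actin, 0 were called by edgeR or limma-voom, 0 by DESeq2 (an adjusted p for 4 of them), and 0 had an unadjusted edgeR p under 0.05, with a median log2 fold change of 0.07 and a range of −0.13 to 0.23. TNS1, the most abundant of them, was at 109 ± 7.70 CPM in stiff and 114 ± 6.06 CPM in soft libraries. Of 6 other tetraspanins, a family with several common vesicle markers, 0 were called by edgeR or limma-voom and 0 had an unadjusted edgeR p under 0.05. DESeq2 gave an adjusted p for 0 of these 6 and so could call none of them, and without its filter on mean count it called 0. TSPAN4 was the most abundant of these, at 58.3 ± 2.27 CPM in stiff and 57.8 ± 6.85 CPM in soft libraries.

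The neighbours of PLEC and EPPK1 on chromosome 8 were mostly above 0. Of the 5 nearest tested genes on either side of this pair, 9 of 10 had a positive log2 fold change, with a median of 0.12 and a median GC content of 65.3%. Of all tested protein-coding genes, 86.4% were above 0 at 65% to 70% GC and 68.2% at 60% to 65%. By edgeR 0 of the 10 neighbours were called, with 2 at an unadjusted p under 0.05, where 9.51% of all genes tested had one. DESeq2 (an adjusted p for 7 of the 10) and limma-voom called 0. Around EVPL 8 of 10 were above 0 (median 0.10, median GC content 59.6%), and around ITGB4, 246.7 kb away on the same chromosome, 5 of 10 (median −0.0012). Around DST 5 of 10 and around ITGB1 5 of 10 were above 0. CD151, itself below 0, had 8 of 10 neighbours above 0 (median 0.05, median GC content 63.0%), ITGA3 had 6, COL17A1 5 and ITGA6 3. Over the 90 neighbours of all members 0 were called by edgeR or limma-voom, and 0 by DESeq2, which gave an adjusted p for 21. At an unadjusted edgeR p under 0.05 there were 7 higher and 2 lower, or 10.0% of the 90, near the 9.51% of all genes tested.

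The pattern of PLEC over the 6 libraries was shared by many genes. Among 4259 other genes with a mean of at least 50 CPM, 215 had Pearson's r of at least 0.9 with PLEC in log2 CPM. Among the closest were WFIKKN1 (r = 0.99), RNA5-8SN3 (r = 0.99), ASIC1 (r = 0.98) and COL6A2 (r = 0.98). Of these, RNA5-8SN3, a ribosomal RNA gene with several copies, and COL6A2, a chain of collagen VI, were called higher by edgeR (log2 fold changes 0.87 and 0.39). WFIKKN1 and COL6A2 have GC contents of 67.0% and 66.4%, and ASIC1 58.3%. Among the members with at least 50 CPM, r with PLEC was 0.86 for EPPK1, 0.78 for EVPL, 0.67 for ITGB4, 0.58 for ITGA3, −0.29 for COL17A1 and −0.64 for DST. With 6 points from 2 groups these values describe the libraries and were not tested.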

How the data were processed

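Vesicle RNA was measured in 6 libraries, 3 stiff and 3 soft. Per the labels' protocols, insulator-based dielectrophoresis gave the vesicles, a miRNeasy Micro kit gave the RNA, and some 10 ng of it went into directional libraries with 9 PCR cycles, read as pairs of 61 bp. The authors deposited raw counts per gene symbol. The submitters' processing notes name Trim Galore 0.4.2, cutadapt 1.9.1, FastQC 0.11.7, STAR 2.6.1e, featureCounts 1.6.2, DESeq2 1.26.0 and hg38, without roles. Not given in the sources used here are the annotation, the strand setting and the treatment of reads that fit several places.

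Counts were tested with edgeR 4.0.16 (R 4.3.3): filterByExpr (7093 genes removed), TMM factors, robust quasi-likelihood fits and two-sided tests, group as the single term. Benjamini-Hochberg adjustment ran over all 31074 genes, and an adjusted p under 0.05 was a call. Each standard error came from the F statistic, and 95% intervals span 1.96 of them either way. DESeq2 1.42.0 and limma-voom (limma 3.58.1) were alternatives, as were other scalings, filters, a replicate block, GC offsets (lowess of log2 CPM on GC content, span 0.3) and leaving out each library. The procedure was tested on simulated counts with planted fold changes. No bias by GC content and no shift in ribosomal RNA share between groups was built into them, so neither was covered. Lengths, GC content and positions came from GENCODE 29 (GRCh38), which held 71.3% of the symbols and all members. The column of stiff replicate 1 carries another replicate number in its name, and the title was followed. The labels name the libraries biological replicates. Where that does not mean separate cultures, p-values measure only the spread between libraries. No molecular identifiers were stated, so PCR copies count as separate reads.

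The 10 genes and all lists were chosen with earlier results of these data known. All members are named. Other listed genes are named where called or most abundant, neighbours where called, and the 5 genes most like PLEC by Pearson's r among those with at least 50 CPM, of which 1 is not reported here. Outside this rule, MIR661, CDK3, TEN1-CDK3, DST-AS1, ITGA6-AS1, GALK1, ITGB1-DT and POLR2L are named because they overlap a member, and LAMA3, LAMB3, KRT5, PPL and DSP were named after their values were seen.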

Additional observations from a re-analysis of the deposited data

How the results depend on the processing

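The count of genes called, 140 with edgeR, was 67 with DESeq2, 43 with DESeq2 without its filter on mean count, 91 with limma-voom, 61 after GC correction and 4194 under library totals alone, and 60 to 136 when 1 library was left out. With library totals alone, the median gene stood at −0.27 on the log2 scale. The count of members called, 2, was 1 with DESeq2 without its filter (PLEC) and 1 under library totals alone, where the call was DST, lower at −0.33 (adjusted p = 0.00670). It was 0 after GC correction and 0 without robust dispersion, although 1 and 2 members had an unadjusted p under 0.05 there, and 0 to 2 when 1 library was left out. Same-numbered libraries did not deviate together, with correlations of 0.0031, 0.0055 and −0.0053 over 22984 genes. The replicate block gave 173 calls, with PLEC and EPPK1 called as before (adjusted p = 0.000181 and 0.00339). GC correction with the replicate block gave 66 calls and 0 members, with 1 at an unadjusted p under 0.05. Members outside the threshold that changed sign were ITGB4 (−0.0065 after GC correction, −0.0075 with the replicate block added, −0.16 under library totals alone), ITGA3 (−0.073) and EVPL (−0.11) under library totals alone, COL17A1 (0.016, range over left-out libraries −0.17 to 0.016) and CD151 (0.037, range −0.25 to 0.037) without stiff replicate 2, and ITGA6 (0.016, range −0.15 to 0.016) without stiff replicate 3. DST and ITGB1 stayed below 0 in all 18 alternatives. The ratio of summed shares, 0.949, was 1.13 without ribosomal RNA and mitochondrial genes, and 0.938 to 0.966 when 1 library was left out. The stiff-over-soft ratio of EPPK1 to PLEC, 1.00 with all libraries, ran from 0.957 to 1.05 when 1 library was left out (added after the data were seen), and was below 1 with stiff replicate 3 left out (0.957), with soft replicate 1 left out (0.993) and with soft replicate 3 left out (0.971). That of ITGA3 to ITGB1, 1.204, was 1.13 to 1.24 with 1 stiff library removed and, leaving out soft libraries 1, 2 and 3 in turn, 1.01, 1.70 and 1.10. Causes other than those built into an alternative were not tested. At 23 to 49 counts, ITGB1 is the member that depth limits most.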
